A study of Mus musculus with 7 samples.

Results

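The unfolded protein response is described here through 35 mouse genes, chosen as a list of named genes: chaperones and folding enzymes of the endoplasmic reticulum (ER), components of ER-associated degradation, the stress sensors and their transcription factors, genes of the ATF4 amino acid response, and 2 genes of protein translocation into the ER. All 35 were measured, among 19938 genes on the array, and they lie on 15 chromosomes. The mice were wild-type (WT) or Atg4b knock-out (KO). Atg4b encodes a cysteine protease that processes the LC3 and GABARAP proteins of autophagosomes. All mice were of the mixed strain C57Bl6/129Sv and 3 months old. Control mice gave 1 array each of WT ileum, KO ileum, WT colon and KO colon. Mice given dextran sulfate sodium (DSS), a sulfated polysaccharide taken by mouth that injures the colonic epithelium, for 7 days and then water for 3 days gave colon only, as 1 WT array and 2 KO arrays, called KO DSS replicate 1 and replicate 2. The labels do not say whether ileum and colon of a genotype came from 1 mouse or whether the deletion is in every cell. P-values therefore measure the spread between these arrays, of which only the KO DSS colon has more than 1 per group.

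Unfolded proteins in the ER are sensed by 3 membrane proteins. IRE1 (Ern1, and in gut epithelium its relative IRE1 beta, Ern2) splices the messenger of Xbp1, ATF6 is cut to release a transcription factor, and PERK (Eif2ak3) phosphorylates the initiation factor eIF2 alpha, which slows translation in general but favours that of Atf4. XBP1 and ATF6 act on chaperone and degradation genes, and ATF4 on genes of amino acid supply and, through CHOP (Ddit3), on genes of prolonged stress. ATF4 is also raised by amino acid shortage and other signals that do not start in the ER. In the intestine the response is best known from goblet, Paneth and plasma cells, which secrete large amounts of protein.

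Each value below is the log2 of the deposited intensity of 1 probe set. Differences are log2 differences with the standard error (SE) of a limma fit over all 7 arrays, and a gene is called higher or lower where its p-value, adjusted by the Benjamini-Hochberg method over all 19938 genes, lies under 0.05. Probe sets differ in how brightly they bind, so levels are compared between arrays and not between genes. Array medians lay between 121.4 and 126.45 in intensity, and the lower quartile of genes lay between 5.71 and 5.87 in log2 intensity on every array. Atg4b was at 7.72, 7.35 and 7.59 on the WT arrays and at 5.39 to 5.45 on the KO arrays, near that quartile. The 5 ileum markers were all higher in ileum and the 5 colon markers all lower there. The sex marker Xist lay between 5.19 and 5.52 on the 4 control arrays and between 12.16 and 12.55 on the 3 DSS arrays, against the labelled sex of the 3 WT arrays, so DSS and sex cannot be told apart. None of the 35 genes lies on X or Y (0 of 35).

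Promoter sequence is shown first, because the chaperone and ATF4 genes are known to respond through different elements. Promoter sequences from RefSeq (GRCm38.p6) were at hand for 29 of the 35, and the 250 bases before each start were searched on both strands. The ER stress response element (ERSE), bound by ATF6 with NF-Y, was searched as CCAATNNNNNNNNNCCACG. It was found in 9 of 29 promoters (31.0%), against 35 of 27025 promoters of all genes in the table (0.13%). Members were listed as known genes of this response, so a higher share among them is no finding, here or for the elements below. Hspa5, which encodes the chaperone BiP, is shown with all 250 bases because it is the reference gene of the response. Capitals mark the only exact match to the ERSE letters. It lies 47 to 65 bases before the start, upstream of a TATA-like stretch. Near matches were not searched for.
Hspa5 (chr2:34771840-34772089, plus strand): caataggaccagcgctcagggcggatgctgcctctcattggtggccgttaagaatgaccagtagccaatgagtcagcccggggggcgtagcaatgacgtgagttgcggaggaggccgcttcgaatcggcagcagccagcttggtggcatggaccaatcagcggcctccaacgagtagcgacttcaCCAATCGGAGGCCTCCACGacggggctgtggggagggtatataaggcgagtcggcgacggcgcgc

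The other 8 promoters with an ERSE are shown as the element in capitals with 20 bases on either side, read 5′ to 3′ on the strand of the gene. Where the capitals begin with CGTGG, the element lies on the opposite strand. Hsp90b1 holds 2 elements, at 89 to 107 and at 194 to 212 bases before its start, and that of Syvn1 is the nearest to a start, at 26 to 44 bases. The lines let the fixed ends of the element be compared with the 9 bases between them, which differ from gene to gene.
Hsp90b1 (chr10:86705513-86705571, minus strand): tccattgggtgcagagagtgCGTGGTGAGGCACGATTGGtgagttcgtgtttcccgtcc
Hsp90b1 (chr10:86705618-86705676, minus strand): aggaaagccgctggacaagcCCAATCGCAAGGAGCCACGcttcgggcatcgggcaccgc
Creld2 (chr15:88819500-88819558, plus strand): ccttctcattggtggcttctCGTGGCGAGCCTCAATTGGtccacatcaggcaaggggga
Pdia6 (chr12:17266471-17266529, plus strand): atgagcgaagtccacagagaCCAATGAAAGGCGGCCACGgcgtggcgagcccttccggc
Dnajc3 (chr14:118937807-118937865, plus strand): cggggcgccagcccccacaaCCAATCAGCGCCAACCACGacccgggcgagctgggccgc
Calr (chr8:84847055-84847113, minus strand): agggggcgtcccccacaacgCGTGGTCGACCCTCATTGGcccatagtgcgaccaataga
Syvn1 (chr19:6046512-6046570, plus strand): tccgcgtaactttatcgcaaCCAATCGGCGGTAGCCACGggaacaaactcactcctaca
Derl3 (chr10:75893222-75893280, plus strand): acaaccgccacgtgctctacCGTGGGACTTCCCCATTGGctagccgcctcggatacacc
Canx (chr11:50325780-50325838, minus strand): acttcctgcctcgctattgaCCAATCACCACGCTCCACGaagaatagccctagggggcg

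The core of the element read by ATF4 and its partners (CARE, searched as TGATGNAA) was found in 3 of 29 members (10.3%) and in 1056 promoters of the table (3.91%). It lay 16 to 23 bases before the start of Asns, and on the opposite strand in Chac1, at 186 to 193 bases, and in Herpud1, at 105 to 112 bases. These are shown because they are the only matches to the core among the members.
Asns (chr6:7693210-7693252, minus strand): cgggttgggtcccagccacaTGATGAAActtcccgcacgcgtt
Chac1 (chr2:119351029-119351076, plus strand): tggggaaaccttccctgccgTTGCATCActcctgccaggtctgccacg
Herpud1 (chr8:94386297-94386344, plus strand): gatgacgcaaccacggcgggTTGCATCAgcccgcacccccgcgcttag

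Herpud1 also held the only ERSE-II among the members (searched as ATTGGNCCACG, found in 10 promoters of the table, 0.037%), 42 to 52 bases before its start. It is shown because Herpud1 thus carries matches to elements of both arms.
Herpud1 (chr8:94386357-94386407, plus strand): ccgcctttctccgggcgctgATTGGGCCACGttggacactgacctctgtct

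No member matched the UPRE (TGACGTGG, 163 promoters of the table, 0.603%), which says only that these letters are absent from these windows. ERSE-II holds the CCAAT box of ERSE on the other strand (ATTGG) and closer to CCACG, and no member matched both. A match is a description of the sequence and not a binding site shown by these data.

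DSS-treated colon had more messenger of the ER folding machinery than control colon (3 against 2 arrays). Of the 35 genes 16 were higher and 1 was lower, against 7.2% of all genes tested called higher and 3.43% called lower. The median difference was 0.41 log2 units over the 35 genes and -0.01 over all genes. The 3 DSS arrays lay above both control colons for 25 of the 35 and below both for 3, against 22.1% and 18.0% of all genes. In whole tissue, more cells that express a gene and more RNA per cell cannot be told apart.

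**Figure D1:**
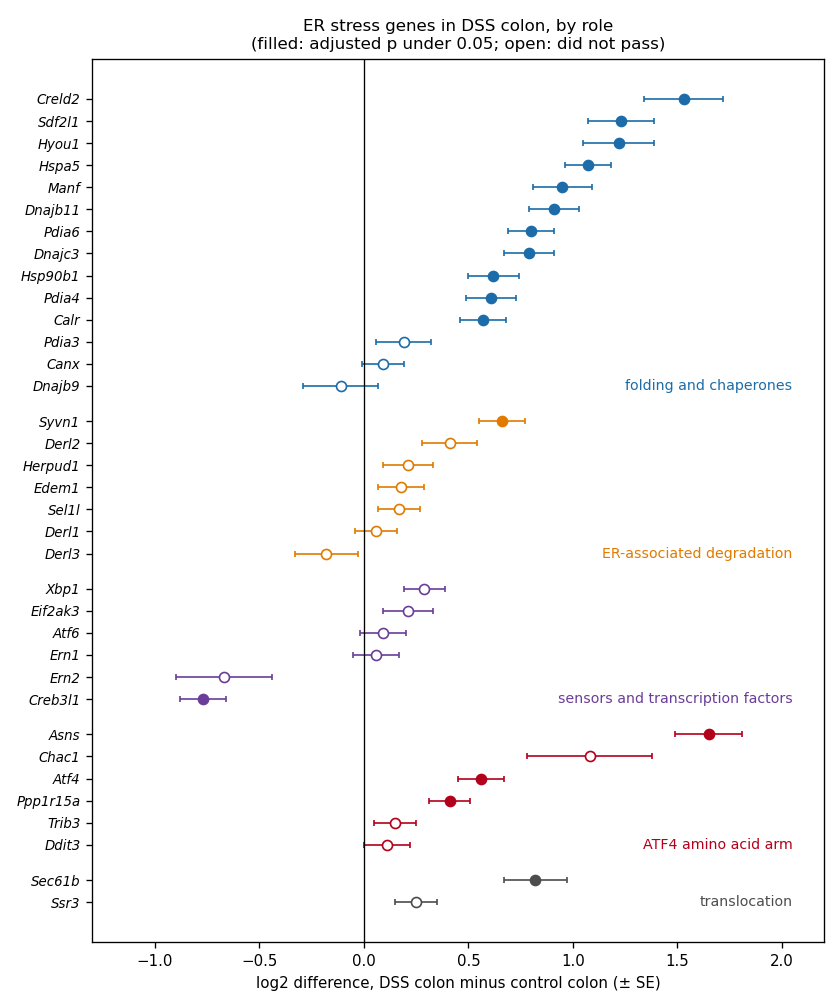
Log2 difference between DSS colon and control colon (horizontal axis) for each of the 35 genes, grouped by role, as points with the standard error of the limma fit; filled points passed an adjusted p of 0.05. Filled points make up 11 of the 14 folding genes, 1 of 7 degradation genes and 3 of 6 genes of the ATF4 arm, and Creb3l1 is the only filled point left of 0.

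Among the 14 chaperones and folding enzymes, 11 were higher, none was lower and the median difference was 0.79. Hspa5, the main chaperone of the ER lumen and the protein that holds the sensors inactive, measured 11.00 and 10.93 in WT and KO control colon. It measured 12.11 in WT DSS colon and 11.86 and 12.09 in the KO DSS pair. All 3 DSS arrays lay above both controls, by 1.07 ± 0.11 (SE), a 2.10-fold difference (adjusted p = 0.00427 in limma). Hyou1, the exchange factor of BiP, went from 9.24 and 9.17 in control colon to 10.60 in WT DSS and to 10.02 and 10.56 in KO DSS. Its groups did not overlap, and the difference was 1.22 ± 0.17 (adjusted p = 0.0114).

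Creld2, an ER protein with disulfide isomerase activity, had the largest difference of the folding genes. Its values were 9.12 and 8.81 in WT and KO control colon, 10.80 in WT DSS colon and 9.99 and 10.55 in KO DSS colon. The lowest DSS array thus stood clearly above the higher control, and the difference was 1.53 ± 0.19, or 2.89-fold (adjusted p = 0.00803). Sdf2l1, a partner of the BiP system, measured 8.96 and 8.93 in control colon, 10.29 in WT DSS and 9.83 and 10.32 in KO DSS. It was higher by 1.23 ± 0.16 (adjusted p = 0.00909). Manf, a secreted and ER-resident protein that binds BiP, measured 8.60 and 8.54 in control colon, 9.62 in WT DSS and 9.24 and 9.64 in KO DSS. Here too the lowest DSS value was above both controls, with a difference of 0.95 ± 0.14 (adjusted p = 0.0125). Dnajb11, a J-domain co-chaperone of BiP, measured 9.15 and 9.09 in control colon, 10.14 in WT DSS and 9.82 and 10.07 in KO DSS, a difference of 0.91 ± 0.12 (adjusted p = 0.00818).

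The other folding genes called higher differed by 0.57 to 0.80. They were the disulfide isomerases Pdia6 (0.80 ± 0.11) and Pdia4 (0.61 ± 0.12), the co-chaperone Dnajc3 (0.79 ± 0.12), the Hsp90 of the ER Hsp90b1 (0.62 ± 0.12) and the lectin chaperone calreticulin, Calr (0.57 ± 0.11). The 3 folding genes that did not pass were Pdia3, the isomerase that works with the lectin chaperones (0.19 ± 0.13), the membrane-bound lectin chaperone calnexin, Canx (0.09 ± 0.10), and Dnajb9 (-0.11 ± 0.18). Dnajb9 encodes ERdj4, a co-chaperone that brings BiP to IRE1 and is a known target of XBP1. It measured 10.03 and 9.86 in control colon, 9.88 in WT DSS and 9.70 and 9.97 in KO DSS, so that its groups overlapped where those of Hspa5 did not. Pdia4 had a second, dimmer probe set with 6.48 and 6.50 in control colon and 6.84 to 7.29 in DSS colon, which also did not overlap.

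The 7 genes of ER-associated degradation had 1 call in DSS colon and a median difference of 0.18. Syvn1, the ubiquitin ligase HRD1, measured 9.12 and 8.98 in control colon, 9.68 in WT DSS and 9.71 and 9.66 in KO DSS, and was higher by 0.66 ± 0.11 (adjusted p = 0.0184). Its partner Sel1l (0.17 ± 0.10), the mannosidase-like lectin Edem1 (0.18 ± 0.11), the HRD1 cofactor Herpud1 (0.21 ± 0.12) and the channel proteins Derl1 (0.06 ± 0.10) and Derl2 (0.41 ± 0.13) did not pass. Derl3, the third of the derlins, measured 7.66 and 7.81 in control colon, 7.50 in WT DSS and 7.61 and 7.51 in KO DSS. All 3 DSS values were the lower ones, but the difference of -0.18 ± 0.15 did not pass (adjusted p = 0.528).

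Of the 6 sensors and their transcription factors none was higher and 1 was lower, with a median difference of 0.07. Xbp1 measured 11.30 and 11.17 in control colon, 11.54 in WT DSS and 11.46 and 11.55 in KO DSS. Its arrays did not overlap, yet the difference of 0.29 ± 0.10 did not pass (adjusted p = 0.140), and a probe set for the whole gene does not report the splicing by IRE1. The differences of Ern1 (0.06 ± 0.11), Atf6 (0.09 ± 0.11) and Eif2ak3 (0.21 ± 0.12), the genes of the 3 sensors themselves, did not pass either. Ern2 measured 11.12 in WT and 10.72 in KO control colon, against 9.92 in WT DSS and 10.63 and 10.21 in KO DSS. Each DSS value was below both controls, but KO DSS replicate 1 was within 0.1 of the KO control, and the difference of -0.67 ± 0.23 did not pass (adjusted p = 0.128).

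Creb3l1 encodes OASIS, a membrane-bound transcription factor related to ATF6 that is known from goblet cells and from matrix-secreting cells. It was the only one of the 35 genes called lower. It measured 12.19 and 12.20 in control colon, 11.33 in WT DSS and 11.44 and 11.54 in KO DSS, so that the highest DSS array stood well below both controls. The difference was -0.77 ± 0.11 (adjusted p = 0.0106), a 1.71-fold lower level. Of 9 measured goblet cell markers 1 was lower in DSS colon (Clca1, -0.98) and none was higher. The mean of the 9 was 12.04 and 11.55 in the control colons and 11.69, 12.41 and 11.93 in WT DSS and the KO DSS pair. This mean was raised in DSS colon by Retnlb, which differed by 3.36 ± 0.88 and did not pass. Retnlb measured 8.87 and 6.35 in the control colons and 10.04, 12.03 and 10.43 in WT DSS and the KO DSS pair. Of the 9 differences 6 were negative, and their median was -0.08. The mean of 6 fibroblast markers was 9.41 and 9.60 in the controls and 9.06, 9.98 and 9.54 in those DSS arrays, with none called. Their part in the Creb3l1 difference was not tested.

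In the ATF4 amino acid arm 3 of 6 genes were higher in DSS colon, with a median of 0.49. Asns, the asparagine synthetase, had the largest difference of all 35 genes. It measured 9.19 and 9.07 in control colon, 10.92 in WT DSS and 10.49 and 10.90 in KO DSS. The DSS arrays stood far above both controls, at a difference of 1.65 ± 0.16, or 3.13-fold (adjusted p = 0.00389). Atf4 itself measured 8.90 and 8.61 in control colon, 9.43 in WT DSS and 9.21 and 9.24 in KO DSS. It was higher by 0.56 ± 0.11 (adjusted p = 0.0298). Ppp1r15a, which encodes GADD34, the phosphatase subunit that reverses the phosphorylation of eIF2 alpha, measured 7.09 and 6.97 in control colon, 7.55 in WT DSS and 7.33 and 7.36 in KO DSS, and was higher by 0.41 ± 0.10 (adjusted p = 0.044).

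Ddit3, Trib3 and Chac1, the other genes of this arm, did not pass. Ddit3, which encodes CHOP, measured 7.57 in WT and 7.29 in KO control colon, 7.55 in WT DSS and 7.52 and 7.47 in KO DSS. Its DSS values lay between the controls, with a difference of 0.11 ± 0.11 (adjusted p = 0.602). Trib3, a pseudokinase induced by CHOP, lay between 6.41 and 6.63 on all 7 arrays, below the median of all gene values of 7.33, with a difference of 0.15 ± 0.10. Chac1, which degrades glutathione, measured 7.43 and 7.14 in control colon, 8.85 in WT DSS, 8.45 in KO DSS replicate 2 and 7.56 in KO DSS replicate 1. The last value lay 0.89 below the other KO array, and the difference of 1.08 ± 0.30 did not pass (adjusted p = 0.0715).

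**Figure D2:**
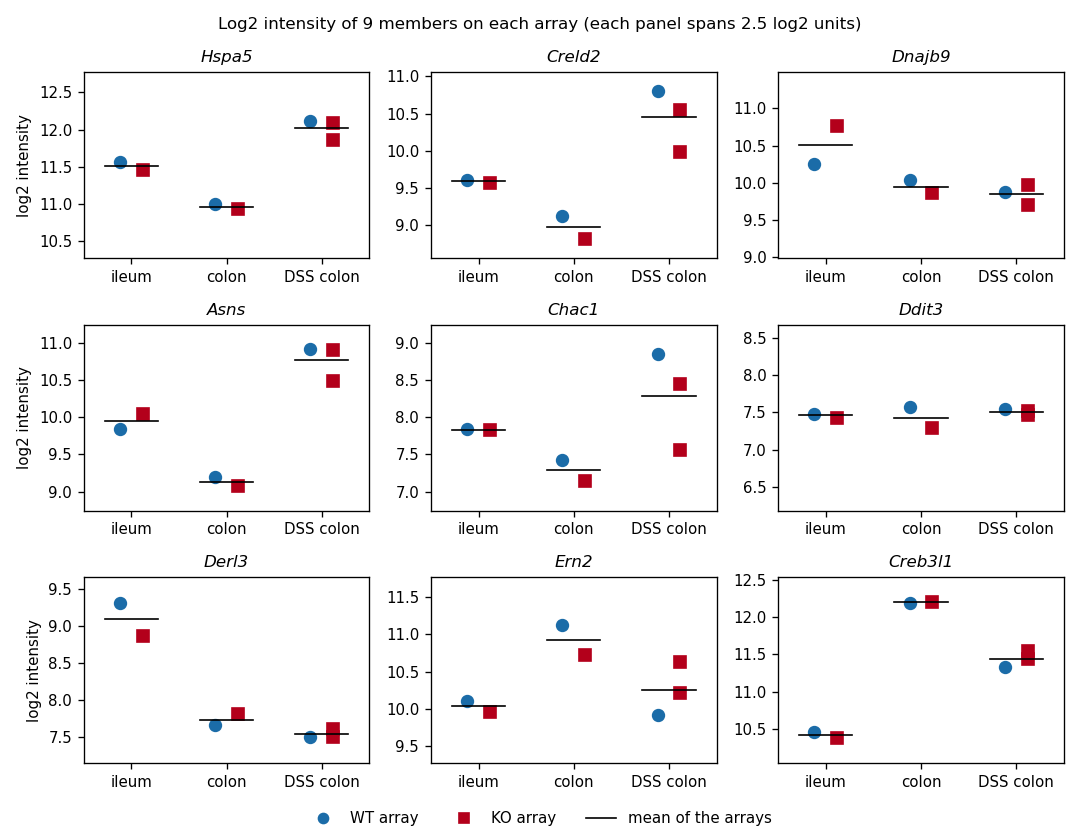
Log2 intensity (vertical axis) of 9 of the 35 genes on each of the 7 arrays by condition, with circles for WT, squares for KO and a line at the mean of the arrays of a condition; every panel spans the same range of 2.5 log2 units. Hspa5, Creld2 and Asns are highest in DSS colon, Derl3 is highest in ileum, Creb3l1 is highest in control colon, and Ddit3 and Dnajb9 show overlapping colon groups.

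The translocation genes were Sec61b, a subunit of the channel through which new proteins enter the ER, and Ssr3, a subunit of the complex that sits beside it. Sec61b measured 8.78 and 8.79 in control colon, 9.56 in WT DSS and 9.55 and 9.61 in KO DSS. Both pairs were tight, and the difference was 0.82 ± 0.15 (adjusted p = 0.0225). Its other 2 probe sets read lower but also did not overlap, at 7.26 to 7.34 and 7.87 to 7.97 in control colon against 7.77 to 7.96 and 8.51 to 8.65 in DSS colon. Ssr3 differed by 0.25 ± 0.10 and did not pass.

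Set side by side, the ATF6/XBP1 chaperone arm (the folding and degradation genes) had 12 of 21 genes higher in DSS colon with a median difference of 0.61, and the ATF4 amino acid arm had 3 of 6 with a median of 0.49. Neither arm had a gene called lower. Within both arms the range was wide, from -0.18 (Derl3) to 1.53 (Creld2) in the first and from 0.11 (Ddit3) to 1.65 (Asns) in the second. Averaged over the 14 folding genes, the difference from the mean of the control colons was 0.85 in WT DSS, 0.52 in KO DSS replicate 1 and 0.82 in KO DSS replicate 2. The same average over the 7 degradation genes was 0.19, 0.19 and 0.24, and over the 6 genes of the ATF4 arm 0.80, 0.45 and 0.66. Over the whole chaperone arm it was 0.63, 0.41 and 0.63, so that KO DSS replicate 1 had the smallest average in both arms. Of the 9 members with an ERSE 7 were higher in DSS colon, and of the 20 members searched without one 7 were. All 9 were folding or degradation genes, whereas the 20 included genes of every role group, so element and role were not separated. For the CARE core the counts were 1 of 3 with a match and 13 of 26 without, and for ERSE-II 0 of 1 and 14 of 28. Of 11 measured genes outside the list whose promoter holds an ERSE, 1 was higher (Alg12), with a median difference of 0.03. Of 488 such genes with the CARE core 41 were higher and 11 lower, with a median of -0.02. Over all genes tested 7.2% were called higher and 3.43% lower.

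The calls of the DSS comparison rested on few arrays. None of the 17 passed without the WT or without the KO control colon (0 each, with the lone control assumed to vary like the other groups) or with 6 separate group means. Of the 35 genes 3 passed without the WT DSS array, 9 without KO DSS replicate 2, and 19 without KO DSS replicate 1, among them all 17. The medians of the arms stayed within 0.56 to 0.64 and 0.45 to 0.52 when any 1 array was left out.

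**Figure D3:**
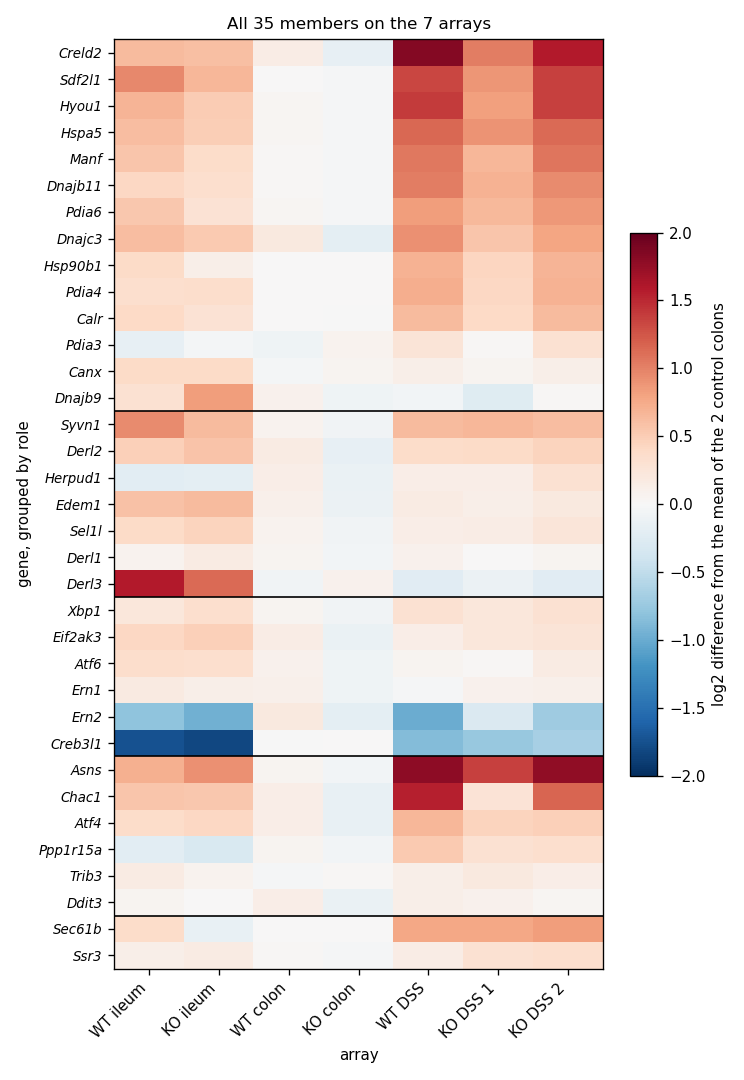
Log2 difference of each of the 35 genes (rows, grouped by role with lines between the groups) from the mean of the 2 control colons, on each of the 7 arrays (columns), from blue (lower) through white (0) to red (higher). The upper block of folding genes is palest among the DSS arrays in KO DSS replicate 1, and Derl3 and Creb3l1 stand out in both ileum arrays.

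KO DSS replicate 1 was the lowest of the 3 DSS arrays for 14 of the 14 folding genes. The same held for 34.1% of all genes tested and for 67.1% of all genes called higher in DSS colon. Of the 16 members called higher, 15 had their lowest DSS value there. Sec61b, at 9.55, 9.56 and 9.61, was among the 15, whereas Syvn1 was highest on that array. Other tissue markers differed along with it. The mean of 8 smooth muscle markers was 11.45 and 11.36 in the control colons, 10.81 in KO DSS replicate 1, 9.74 in replicate 2 and 9.20 in WT DSS, and 3 of the 8 were called lower in DSS colon. All 7 neutrophil markers were higher, with means of 5.73 and 5.95 in control colon and of 7.65, 7.95 and 8.22 in the same DSS order. Of 6 macrophage markers 3 were higher. The 6 epithelial markers had none called and means of 12.25 and 12.17 in control colon and 12.24 to 12.27 in DSS colon. Of 10 plasma cell markers 3 were lower (Ighm -1.52, Jchain -1.46, Tnfrsf17 -0.83) and 1 higher (Prdm1 1.70). Among the 5 colon markers, Hoxb13 measured 8.59 in KO DSS replicate 1, 10.5 in replicate 2 and 10.54 in WT DSS. Tgm3 measured 10.03, 11.82 and 12.08 in that order. Car1 and Aqp8 were instead highest in replicate 1, and B3galt5 lay between 12.13 and 12.21. The part of neutrophils, macrophages, muscle and sex in the differences of the 35 genes was not tested, nor was that of the colon markers.

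Other genes of the same pathways were taken from 7 lists. Of 17 further genes of ER folding and oxidation 7 were higher, with a median of 0.51. Ero1a, the oxidase that recharges the disulfide isomerases, differed by 1.00 ± 0.20 and Dnajc10, a reductase with a J domain, by 0.90 ± 0.13. Of 12 further degradation genes 2 were higher and 1 lower. The higher ones were Vcp, the ATPase that pulls proteins out of the membrane (0.71 ± 0.14), and the ubiquitin-conjugating enzyme Ube2g2 (0.62 ± 0.11), and the lower one was the lectin Erlec1 (-0.67 ± 0.13). Of 22 genes of translocation, signal peptidase and glycosylation 5 were higher, among them Ostc, a subunit of the oligosaccharyltransferase (0.65 ± 0.13), and Srprb, a subunit of the signal recognition particle receptor (0.62 ± 0.12). Of 10 further stress transducers 2 were higher. These were Eif2ak2, the kinase PKR that responds to double-stranded RNA (1.02 ± 0.15), and Ppp1r15b, the constitutive counterpart of Ppp1r15a (0.91 ± 0.10).

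Of 25 further genes of the ATF4 amino acid response 8 were higher and none lower, with a median of 0.49. Slc7a11, the cystine transporter, stood furthest out at 2.53 ± 0.20, followed by the mitochondrial folate enzyme Mthfd2 (1.75 ± 0.25). Psat1, an enzyme of serine synthesis, differed by 1.73 ± 0.26 and the amino acid transporter Slc7a5 by 1.65 ± 0.20. Of 11 aminoacyl-tRNA synthetases 6 were higher with a median of 0.78, led by Wars (1.50 ± 0.13) and Gars (1.14 ± 0.14). Wars is also known as an interferon-induced gene. Heat shock genes of the cytosol and mitochondria, which belong to another response, were higher in 6 of 10, with Hsph1 at 1.96 ± 0.16 and the mitochondrial Hspe1 at 1.20 ± 0.14, and a median of 0.65.

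**Figure D4:**
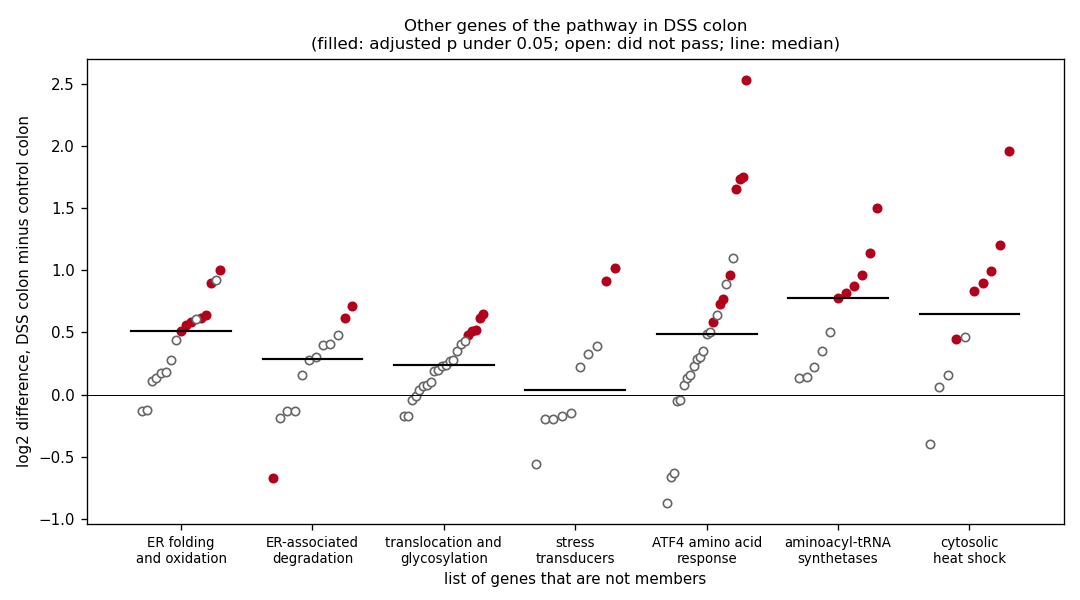
Log2 difference between DSS colon and control colon (vertical axis) of genes outside the 35, in 7 lists (horizontal axis), as 1 point per gene, filled where the adjusted p was under 0.05, with a line at the median of each list. The medians run from 0.03 for stress transducers to 0.78 for aminoacyl-tRNA synthetases, and the highest point is Slc7a11 at 2.53.

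Between the control tissues, ileum had more of several degradation and folding genes than colon (2 against 2 arrays). Of the 35 genes 6 were higher in ileum and 1 lower, against 5.94% and 3.22% of all genes tested. The median difference was 0.38 over the 35 genes and -0.02 over all genes, and both ileum arrays lay above both colons for 28 of the 35 and below for 4, against 25.8% and 28.2% of all genes. The chaperone arm had 5 of 21 genes higher with a median of 0.46, and the ATF4 arm 1 of 6 with a median of 0.25.

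The degradation genes supplied 3 of the 6 calls. Derl3, named above for its ERSE, measured 9.31 in WT and 8.87 in KO ileum against 7.66 and 7.81 in colon, and was higher by 1.36 ± 0.16, or 2.56-fold (adjusted p = 0.00416). Syvn1 measured 9.99 and 9.69 in ileum against 9.12 and 8.98 in colon, a difference of 0.79 ± 0.12 (adjusted p = 0.0102). Edem1 measured 11.18 and 11.23 in ileum against 10.69 and 10.48 in colon, a difference of 0.62 ± 0.12 (adjusted p = 0.0227). For none of the 3 did the tissues overlap, and for each the gap between them exceeded the gap within either pair. Of the folding genes Sdf2l1, at 9.91 and 9.62 in ileum, was higher by 0.82 ± 0.18 (adjusted p = 0.0364) and Hspa5, at 11.57 and 11.45, by 0.55 ± 0.12 (adjusted p = 0.0394). Asns, at 9.84 and 10.05, was higher by 0.82 ± 0.18 (adjusted p = 0.0388).

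Creb3l1 was the only member called lower in ileum. It measured 10.46 in WT and 10.38 in KO ileum against 12.19 and 12.20 in colon, a 3.43-fold lower level with a difference of -1.78 ± 0.12 (adjusted p = 0.000387). Ern2 measured 10.11 and 9.96 in ileum against 11.12 and 10.72 in colon, and its difference of -0.88 ± 0.25 did not pass (adjusted p = 0.0942). None of the 9 goblet cell markers was called between the tissues. For Creb3l1 the 3 conditions stood in order without overlap, with control colon highest, DSS colon between and ileum lowest. For 9 of the 14 folding genes both ileum arrays lay between the control colons and the DSS arrays, against 3.9% of all genes and 40.3% of the genes called higher in DSS colon. The ileum and DSS differences share the control colons, so this order is a description. Of the 35 genes 5 were called in both comparisons (Hspa5, Sdf2l1, Syvn1, Asns and Creb3l1).

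The remaining members did not pass between ileum and colon. Dnajb9 measured 10.25 in WT and 10.77 in KO ileum, above its colon values, with a difference of 0.57 ± 0.19 (adjusted p = 0.143). Xbp1, at 11.47 and 11.57 in ileum, differed by 0.29 ± 0.11 and Atf4, at 9.12 and 9.17, by 0.39 ± 0.12. Ddit3, at 7.48 and 7.43, differed by 0.03 ± 0.12. Creld2 (0.62 ± 0.21), Hyou1 (0.59 ± 0.19), Dnajc3 (0.56 ± 0.13), Chac1 (0.55 ± 0.32), Derl2 (0.53 ± 0.14), Manf (0.46 ± 0.15), Eif2ak3 (0.44 ± 0.13), Sel1l (0.41 ± 0.11) and Pdia6 (0.41 ± 0.12) lay above the median of the 35, and Canx (0.38 ± 0.10) lay at it. The other 13 lay between -0.26 (Ppp1r15a) and 0.37 (Dnajb11), with Herpud1 (-0.20 ± 0.13) and Pdia3 (-0.10 ± 0.14) on the side of the colon.

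In the 7 lists of other pathway genes, the called genes were all higher in ileum. Over all genes tested 5.94% were called higher there and 3.22% lower. The share called higher over the 7 lists together was near that of all genes. Creb3l3, a membrane-bound factor of the ATF6 family known from liver and small intestine, was higher by 2.41 ± 0.30, and Ppp1r15b by 0.65 ± 0.11. Hspa13 (0.84 ± 0.17) and P4hb (0.60 ± 0.11) were the 2 of 17 further folding genes called. Of the ATF4 response 2 of 25 were called, the proline enzyme Aldh18a1 (1.56 ± 0.22) and the transporter subunit Slc3a2 (0.82 ± 0.15), and of the synthetases 1 of 11 (Nars, 0.77 ± 0.17). No gene was called among the further degradation genes (0 of 12), the translocation list (0 of 22) or the list of heat shock genes of the cytosol and mitochondria (0 of 10).

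Markers of several cell types were higher in ileum. Among 10 plasma cell markers 5 were called higher (Ighm, Prdm1, Tnfrsf17, Jchain and Mzb1) and none lower, and 2 differences were negative. The plasma cell means were 8.76 and 8.84 in ileum and 8.03 and 8.21 in colon. Adipocyte markers were called higher in 3 of 4 and macrophage markers in 2 of 6, with all of both lists positive. Among 6 epithelial markers Vil1 was called higher (1.28). Of 5 Paneth cell markers 4 were higher, with means of 11.15 and 12.04 in ileum and 6.33 and 6.05 in colon. The 9 measured markers of pancreatic acinar cells had none called and means of 5.91 to 6.21 on all arrays, near the lower quartile. The part of plasma cells, Paneth cells, macrophages and adipocytes in the ileum differences was not tested. Of the 7 calls 1 remained without the WT control colon (Creb3l1), 2 without the KO control colon, 2 without WT ileum, 3 without KO ileum and 4 without KO DSS replicate 2, whereas 12 members passed without KO DSS replicate 1, and with 6 group means 2 passed.

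None of the 35 genes was called between KO and WT. Over all conditions together (4 KO against 3 WT arrays) limma called 0 of them, and 1 gene in all (0.00502% of those tested), Atg4b itself. At an unadjusted p under 0.05 there were 720 genes and again 0 of the 35. The median difference of the members was -0.06, and 28 of them had a negative one, as did 10645 of all 19938 genes. The largest were those of Chac1 (-0.43 ± 0.25), Creld2 (-0.31 ± 0.16) and Dnajc3 (-0.23 ± 0.10), each with an adjusted p of 0.989. In Dnajc3, KO minus WT was -0.08 in ileum, -0.38 in colon of control mice and -0.24 after DSS. With these standard errors, small differences in either direction were not detectable, and a missed threshold does not show equal levels.

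Within DSS colon (2 KO arrays against 1 WT array) no gene was called (0.0% of those tested, 776 at an unadjusted p under 0.05, none of them among the 35). For 14 of the 14 folding genes the KO mean lay below the WT array, with differences from -0.03 (Canx) to -0.52 (Creld2). The same held for 48.0% of all genes tested and 77.3% of all genes called higher in DSS colon. Creld2 differed by -0.52 ± 0.26 and Chac1 by -0.84 ± 0.36, the largest value of the 35, while Ern2 was higher in KO at 0.50 ± 0.22. None of the 3 passed (adjusted p = 1.0 each). Averaged over the folding genes, replicate 2 stood 0.82 and replicate 1 stood 0.52 above the control colons, against 0.85 for WT. Both KO arrays were below the WT array for 8 of the 14 folding genes and for 5 of the 6 genes of the ATF4 arm, against 32.4% of all genes and 62.0% of the genes called higher in DSS colon.

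Leaving out a KO DSS array changed this comparison most. Without replicate 2 limma called 1 member, Chac1 (-1.29, adjusted p = 0.00981), and 387 genes higher and 151 lower over the whole array, and without replicate 1 Chac1 stood at -0.40 and 0 of the 35 passed. Either fit sets 1 KO array against 1 WT array in DSS colon and takes its spread from the control arrays alone, so the lone arrays are assumed to vary like those.

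The DSS difference in KO colon was set against that in WT colon by an interaction term. No gene passed (0.0% of those tested, 639 at an unadjusted p under 0.05), and 1 of the 35 had an unadjusted p under 0.05. This was Ern2, at 0.78 ± 0.29 (unadjusted p = 0.0342, adjusted p = 1.0), the largest value of the 35. The WT DSS array differed from the WT control by -1.21 in Ern2, and the KO DSS arrays from the KO control by -0.08 and -0.51. Of 9 goblet cell markers 8 had a positive interaction value and 1 a negative one, with a median of 0.52. For 4 of them limma gave an unadjusted p under 0.05, and none passed. The part of goblet cells in the Ern2 value was not tested. Chac1 (-0.69 ± 0.46) and Creld2 (-0.35 ± 0.33) had the next largest values. From control to DSS colon Chac1 went up by 1.42 in WT and by 0.42 and 1.31 in KO, and Creld2 by 1.67 in WT and by 1.18 and 1.74 in KO. For both genes KO DSS replicate 2 resembled WT and replicate 1 stood lower. On simulated data with 200 changed genes the interaction fit recovered 0.0% of genes changed by 1 or by 2 log2 units, and the DSS fit 60.0% and 91.2%.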

How the data were processed

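Total RNA from ileum or colon was turned into biotin-labelled target with an Affymetrix kit for sense target, as the labels' protocols state. The authors deposited 1 linear intensity per probe set for each of 7 arrays. How they summarised and normalized these intensities is not stated in any source used here, so a shift shared by all genes could have been removed. The log2 of each deposited value was computed here. Of 35512 probe sets 21789 had 1 gene symbol in the platform annotation, 1621 had several and 12102 had none here, and the brightest probe set of each of 19938 genes was used.

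Models were fitted with limma 3.58.1 in R 4.3.3 (lmFit and eBayes). The first held condition and genotype (3 residual degrees of freedom) and served the DSS, ileum and KO comparisons. The second added the genotype effect within DSS colon, with 2 residual degrees of freedom. The error is therefore mostly the disagreement between genotypes across conditions. With 1 array in 5 of the 6 groups, the number of arrays limits the precision. P-values were adjusted over all genes. No list was given a test of its own.

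The members, role groups, pathway lists and marker lists were chosen with earlier results of these data known. Values by array are given for Hspa5, Xbp1, Atf4, Ddit3, Asns, Ern2, Creb3l1 and Derl3 and, in each comparison, for the members past the threshold, up to the 8 largest differences, or the 3 largest where fewer than 3 passed. Of each pathway list the 2 called genes with the largest difference are named, and further genes named were chosen after their values were seen. Of 117 pathway genes 107 were measured. Promoters were searched in RefSeq sequence of GRCm38.p6. The fits were checked on simulated arrays in which 200 genes were changed. There the DSS fit recovered 15.0% of genes changed by 0.6 log2 units, 60.0% at 1 and 91.2% at 2. The genotype fit within DSS colon recovered 0.0% at 1 and 47.5% at 2. In the data the DSS comparison called 1436 genes higher and 684 lower. The adjustment was therefore stricter in the simulated DSS fit than in the data, and its shares do not carry over directly. There were 17 alternative settings, among them quantile normalization, other probe set rules, labelled sex as a covariate and leaving out each array. Figures were drawn with matplotlib 3.10.9.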

Additional observations from a re-analysis of the deposited data

Results flagged for a closer look

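Both results below were picked out because the genotypes differed in direction. Ern1, which encodes IRE1, differed between DSS and control colon by -0.12 in WT and by 0.18 and 0.18 on the KO arrays, and the interaction term did not pass for it (adjusted p = 1.0). Sec61b differed between ileum and control colon by 0.38 in WT and by -0.15 in KO, and this difference between genotypes was not tested.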

How the results depend on the processing

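No result changed direction under any alternative that was run. In DSS colon the 17 calls became 0 with 6 group means, which leave a single residual degree of freedom, and 0 to 19 when 1 array was left out. The 12 calls of the chaperone arm became 0 and 0 to 12 under the same settings. The 3 calls of the ATF4 arm became 0 with 6 group means, 1 with all probe sets, 1 with labelled sex as a covariate and 0 to 4 without 1 array. The 7 ileum calls became 2 with 6 group means, 4 with all probe sets and 1 to 12 without 1 array. Between KO and WT in DSS colon the count was 0 to 1 without 1 array and 0 otherwise; over all conditions and in the interaction it was 0 in every setting run. For single members called in DSS colon, 192 of the values under other settings stayed past the threshold and 97 did not; for ileum these were 72 and 40. Under quantile normalization 56.3% of all genes called in DSS colon were higher, against 67.7%, and 16 members passed. The causes were not tested. Over all genes the DSS calls, 1436 higher and 684 lower, fell to 211 and 86 with 6 group means, 100 and 83 without the KO and 156 and 60 without the WT control colon. For the genotype difference after DSS and the interaction, labelled sex and leaving out the WT DSS array could not be fitted. For these, 6 group means were not run. Labelled sex goes against Xist on the 3 WT arrays, and it is a combination of genotype, DSS and their interaction. The setting with labelled sex therefore did not adjust for the sex of the mice. No paired analysis was possible because the labels do not say which arrays came from the same mouse. Values below the median of all gene values, as for Trib3, limit what could be seen of dim genes.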

Other observations

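The 14 folding genes and the markers of neutrophils and smooth muscle give 3 different orders of the arrays in control tissue. Relative to the control colons, ileum stood at 0.47 in WT and 0.40 in KO over the folding genes. There the neutrophil markers stood at -0.02 and 0.16 and the smooth muscle markers at -0.53 and -0.80. Macrophage markers stood at 0.38 and 1.1 in ileum, 0.71 in WT DSS colon and 0.75 and 0.76 in the KO DSS pair. Plasma cell markers stood at 0.64 and 0.72 in ileum, -0.19 in WT DSS colon and -0.3 and -0.12 in the KO DSS pair. The part of these cells was not tested. The heat shock genes of the cytosol and mitochondria, which averaged 0.65 in WT DSS colon and 0.72 and 0.61 in the KO DSS pair, stood at 0.02 and -0.02 in ileum. In the average of this list KO DSS replicate 1 was the highest of the DSS arrays, whereas in the folding genes, at 0.52, it was the lowest. Of the 10 heat shock genes 5 had a positive and 5 a negative difference between KO and WT in DSS colon. Their median was 0.01 and the range -0.49 to 1.14, so the average can rest on single genes. The aminoacyl-tRNA synthetases averaged 0.81 in WT DSS colon and 0.42 and 0.74 in the KO DSS pair. The 25 further genes of the ATF4 response averaged 0.60 in WT DSS and 0.50 and 0.51 in KO DSS.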
